A study of Homo sapiens with 6 samples.

Results

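The SOX genes described here are 10 protein coding genes, SOX2, SOX4, SOX5, SOX6, SOX8, SOX9, SOX11, SOX12, SOX13 and SOX18, out of 20163 protein coding genes that GENCODE places on chromosomes 1 to 22, X and Y of GRCh37. The genes were listed by name, with no threshold on a measured value, although earlier results of these data were known and SOX9 is an example locus of the study. For each gene, the HA peaks and the H3K4me3 regions that lay within 1 kb of any annotated transcription start site (TSS) or inside the gene body were collected, with their widths, heights and positions. All 10 genes were found in the annotation.

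SOX proteins are transcription factors that bind DNA through an HMG box, a domain that sits in the minor groove and bends the helix. The family is divided into groups by the likeness of this domain. SOX2 (group B1) keeps stem cells and neural progenitors undifferentiated, SOX4, SOX11 and SOX12 (group C) act in neural and mesenchymal progenitors, SOX5, SOX6 and SOX13 (group D) lack a transactivation domain and act with partners, SOX8 and SOX9 (group E) act in cartilage, gonad and neural crest, and SOX18 (group F) acts in blood and lymph vessel development. SOX9, with SOX5 and SOX6 as partners, is the main regulator of cartilage formation and switches on collagen and proteoglycan genes of the cartilage matrix.

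Native ChIP-Seq (nChIP-Seq), in which nucleosomes released by micrococcal nuclease are immunoprecipitated without crosslinking, used the human osteosarcoma line U2OS, grown to 2 days past confluence. ProMMP2-3xHA cells stably carry a transgene, expressed at all times, for the metalloproteinase MMP-2 in its pro-form, joined at the C-terminus to the 3xHA tag, and wild type (WT) U2OS cells carry no tag. Both lines keep their own MMP2 gene. Whether the stable line is 1 clone is not given in the sources used here. The peak lists were 3 of HA in ProMMP2-3xHA cells, 1 per replicate, 1 called on the pooled replicates (merged HA), and 1 of H3K4me3 per line. For HA in WT cells no separate list was used here. H3K4me3, trimethylated lysine 4 of histone H3, marks the nucleosomes around active promoters. The promoters of 5 of 7 mesenchymal and osteoblast lineage markers (VIM, FN1, COL1A1, SPARC and RUNX2, but not COL1A2 or TWIST1) carried H3K4me3 in both lines, as did 1 of 8 markers of blood, vessels, epithelium, liver and glia (EPCAM). Of all protein coding genes, 63.6% carried H3K4me3 in ProMMP2-3xHA cells and 67.2% in WT cells, so 5 of 7 was near the share of all genes. The study describes the HA replicates as independent biological experiments.

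Merged HA peaks lay within 1 kb of a TSS of 7 of the 10 SOX genes (SOX2, SOX4, SOX5, SOX6, SOX9, SOX12 and SOX13), where 32.4% of all protein coding genes had one. Without SOX9 the count was 6 of 9, and with the canonical TSS of each gene in place of every annotated one it was 5 of 10, SOX5 and SOX6 dropping out. None of 9 other SOX genes examined had a merged peak, so that 7 of 19 SOX genes (36.8%) had one, a share near that of all genes. At the remaining genes, SOX11 had a merged HA peak in its gene body only, and SOX8 and SOX18 had none at all. Among the 10 listed genes, group D had a merged peak at 3 of 3, group C at 2 of 3 and group E at 1 of 2, and SOX18 of group F was without one. The 9 other SOX genes are not part of these group counts.

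The replicates did not recover the same genes. Replicate 1 had a peak at 5 genes (SOX4, SOX5, SOX6, SOX9 and SOX12), against 23.9% of all genes. Replicate 2 had a peak at 7 genes (those 5 with SOX2 and SOX8), against 32.3%. Replicate 3 had a peak at 4 genes (SOX6, SOX9, SOX12 and SOX13), against 32.8%. A peak of every replicate was found at 3 genes, SOX6, SOX9 and SOX12, where 19.2% of all genes had one. Beside their merged peaks, SOX2 and SOX13 thus each had a called peak in 1 replicate, and SOX4 and SOX5 in replicates 1 and 2. The merged list was called on the pooled replicates, and what replicates without a call gave to these merged peaks was not measured.

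H3K4me3 of the ProMMP2-3xHA cells lay at 6 of the 10 genes (SOX4, SOX5, SOX6, SOX9, SOX12 and SOX13), against 63.6% of all genes. WT cells had H3K4me3 at these 6 genes and at SOX2 and SOX8, so at 8 of 10, against 67.2% of all genes. SOX2 and SOX8 were thus the 2 genes with a region in WT cells and none in ProMMP2-3xHA cells, a pattern that 4.03% of all genes had. Each H3K4me3 list came from 1 library, and the difference between the lines has no replicate check.

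All 6 SOX genes with H3K4me3 in both lines had a merged HA peak, against 50.6% of the 12737 protein coding genes with H3K4me3 in both lines. These 6 genes had wide regions, and among the 1696 genes whose ProMMP2-3xHA H3K4me3 was at least 2432 bp wide, the width at SOX13, 74.7% had a merged HA peak. The limit of 2432 bp was set from the SOX genes themselves.

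A pair of promoters with contrasting patterns is shown from 250 bases before to 50 bases after the TSS, read from the GRCh37 sequence on the strand of the gene at the GENCODE start. SOX12 had HA in every replicate, and SOX4 had HA in 2 replicates and the widest H3K4me3. Capitals mark matches to the GC box GGGCGG and the CCAAT box CCAAT on either strand (CCGCCC and ATTGG on the other), with matches that overlap each counted.
SOX12 promoter, chr20:305946-306245, plus strand: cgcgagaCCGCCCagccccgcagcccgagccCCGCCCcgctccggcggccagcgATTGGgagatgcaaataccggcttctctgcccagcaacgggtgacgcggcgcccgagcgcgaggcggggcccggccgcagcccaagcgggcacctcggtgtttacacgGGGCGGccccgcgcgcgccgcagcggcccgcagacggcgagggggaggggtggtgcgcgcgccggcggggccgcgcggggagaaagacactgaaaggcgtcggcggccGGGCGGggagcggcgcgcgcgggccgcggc
SOX4 promoter, chr6:21593732-21594031, plus strand: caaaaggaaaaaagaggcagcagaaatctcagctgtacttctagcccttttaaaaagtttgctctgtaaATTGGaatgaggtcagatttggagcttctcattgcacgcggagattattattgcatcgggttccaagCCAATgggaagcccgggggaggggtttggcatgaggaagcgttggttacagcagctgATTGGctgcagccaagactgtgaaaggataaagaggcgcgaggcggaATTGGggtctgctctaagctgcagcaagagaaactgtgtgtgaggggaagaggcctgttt

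The 2 promoters differ in composition. SOX12 had a GC content of 80.3%, against a median of 63.7% over 19862 promoters of the same length, and SOX4 was below that median with 49.3%. SOX4 held 4 CCAAT boxes, at -181, -114, -57 and -10, a number that 1.24% of promoters reach, and no GC box. SOX12 held 4 GC boxes, which 14.9% of promoters reach, and 1 CCAAT box. At least 1 GC box was present in 61.5% of all promoters and at least 1 CCAAT box in 36.0%. HA was thus found at promoters on either side of the median GC content.

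Of the motifs that HMG-box factors bind, AACAAT, the core of a SOX site, is held by 6.42% of all promoters on either strand. ACAAAG, also a motif of HMG-box factors, is held by 12.2%. Which factor binds a match was not tested. Of the windows reported here, that of SOX2 held ACAAAG at -220 and the canonical one of SOX5 held it at 43. The windows of SOX4, SOX8, SOX11, SOX12 and SOX13 held neither, and none of these 5 held the TATA box TATAAA, which 9.63% of promoters hold. The window at the 5′ end of SOX5, where its HA peak lay, held AACAAT once. The canonical promoter of SOX6, which had neither HA nor H3K4me3, held AACAAT at 2 positions and ACAAAG at 3, and its GC content was 40.0%, lower than in all but 5.16% of promoters.

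SOX9 had the highest HA peak among the SOX genes in replicates 1 and 2. Its merged HA region was 911 bp wide, chr17:70117142-70118052, and ran from 19 bp before to 891 bp after the TSS, over the 5′ UTR and into the coding part of exon 1. Fold enrichment, the height of a summit over the local background in the control as the authors' peak caller gives it, was 7.08, 9.76 and 4.40 in replicates 1, 2 and 3, with a mean ± SD of 7.08 ± 2.68 (n = 3). Fragments at these summits, counted back from the fold enrichment and its p-value, numbered 79 (95% Poisson interval 62.5 to 98.5), 97 (78.7 to 118) and 42 (30.3 to 56.8). Replicate 3 was the low one in fold enrichment and in fragments, with a fragment interval that does not reach those of replicates 1 and 2. These fragment numbers are not corrected for library depth, so their intervals do not compare the heights of the replicates. The background at the summit was 2.27, 2.64 and 2.41 on the scale of the control library. It is not in the unit of the HA fragments, which are scaled down by 3.57, 2.81 and 3.00 to reach the control scale. Among all genes with a peak, SOX9 stood at the 86.0th and 91.3rd percentile of replicates 1 and 2 and at the 31.1st of replicate 3. The highest summits lay 143, 133 and 76 bp after the TSS, so that the position differed by less than the length of a nucleosome although the height did not repeat. SOX9-AS1, an antisense lncRNA, has start sites 210 to 236 bp upstream of the SOX9 TSS, and the 3 highest HA summits lay on the SOX9 side of these.

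SOX12 also had HA in every replicate, and the widest merged region of the SOX genes. It was 4447 bp wide, chr20:305382-309828, from 814 bp before to 3632 bp after the TSS of a single-exon gene, and covered 77.7% of the gene, against 16.5% at SOX9, 13.2% at SOX11 and 4.03% or less at the other SOX genes. The merged list joins narrow calls with broad ones, and the study's separate call of broad regions was not used here. Inside the gene, replicate 1 had peaks of 217 and 333 bp and replicate 2 of 2131 and 925 bp. Replicate 3 had peaks of 233, 749 and 646 bp there. With those upstream of the TSS, the replicates held 3, 3 and 4 separate peaks. Each had a peak that began 5 or 6 bp after the TSS, with a summit at 111, 120 and 125 bp and a fold enrichment of 4.96, 4.61 and 5.11. Replicate 2 was highest elsewhere, at 1160 bp after the TSS with 5.95, in a peak of 2131 bp. The highest values of the replicates, 4.96, 5.95 and 5.11, gave a mean of 5.34 ± 0.534 (SD, n = 3), the smallest spread of the SOX genes with peaks in 2 or more replicates. Peaks further upstream, with summits between 520 and 1062 bp before the TSS, lay beside start sites of the antisense lncRNA NRSN2-AS1 at 283 and 1091 bp upstream. The merged region reached further into the gene than H3K4me3, which ended 2587 bp after the TSS in ProMMP2-3xHA cells and 2686 bp in WT cells.

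**Figure D1:**
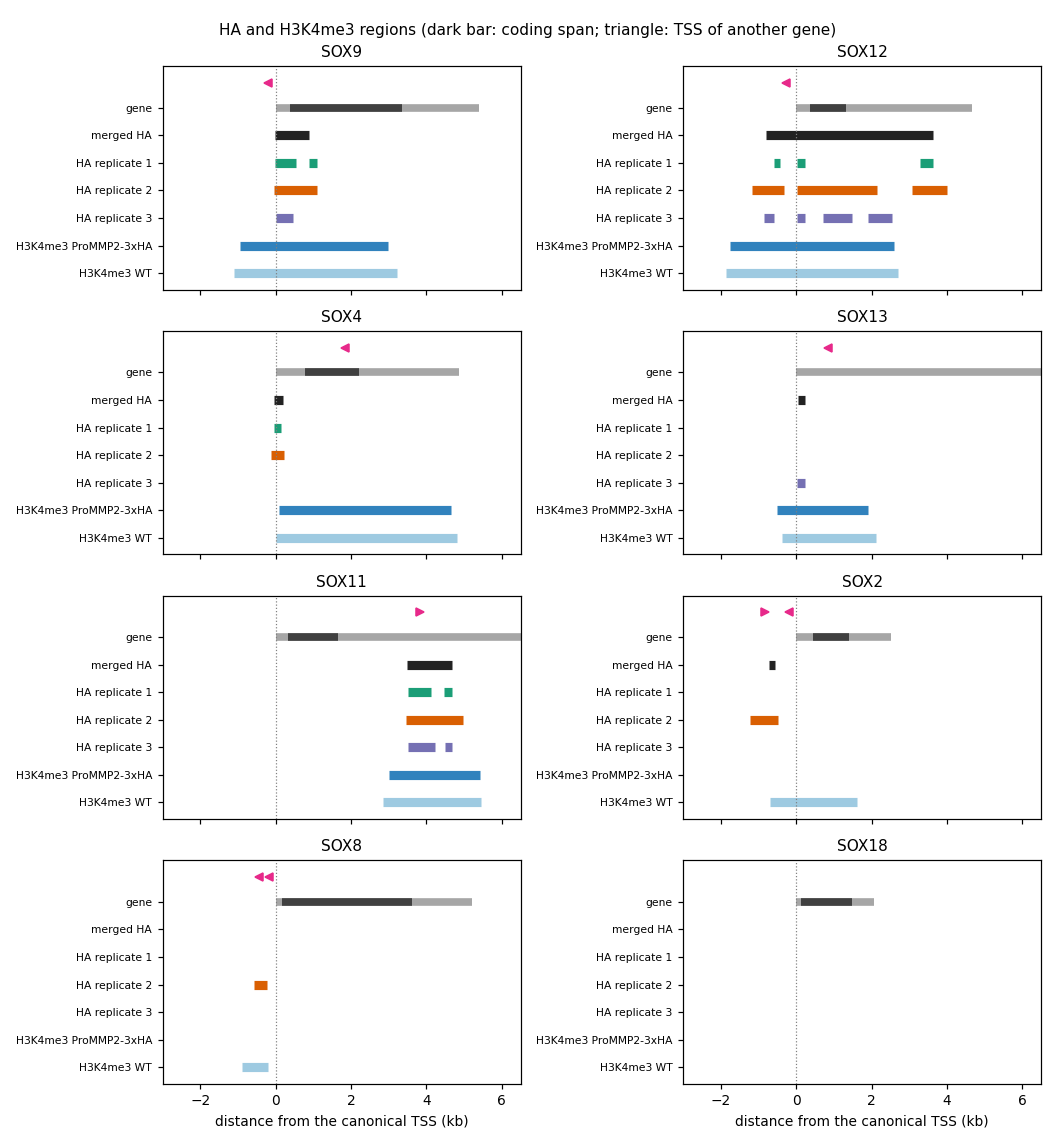
Maps of 8 SOX genes by distance from the canonical TSS (kb, dotted line at the TSS), with the gene in grey and its coding span in dark grey, and with 1 row each for the merged HA list, the 3 HA replicates and the H3K4me3 list of each line. A triangle marks a TSS of another gene and its direction. The merged HA region covers the TSS in SOX9, SOX12 and SOX4 and lies at the first start sites in SOX13, begins 3493 bp downstream in SOX11, while HA is upstream of the TSS in SOX2 and SOX8.

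SOX4, a group C factor of progenitor cells encoded by a single exon, combined a narrow HA peak with the widest H3K4me3 of the SOX genes. The merged HA peak was 251 bp wide, chr6:21593927-21594177, from 55 bp before to 195 bp after the TSS. Fold enrichment was 4.40 in replicate 1 and 7.66 in replicate 2, with 33 (22.7 to 46.3) and 52 (38.8 to 68.2) fragments and summits at 10 and 56 bp after the TSS, and replicate 3 had no peak within 4658 bp. H3K4me3 began 74 bp after the TSS in ProMMP2-3xHA cells and 9 bp after it in WT cells, and covered 93.9% and 98.7% of the gene. The HA peak thus sat on the 5′ edge of the marked region, and the stretch of 250 bases before the TSS printed above held no H3K4me3 in either line.

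SOX11, a close relative of SOX4 that acts in neural progenitors, had neither HA nor H3K4me3 at its own TSS. Both lay in the 3′ UTR of its single exon. The merged HA region was 1185 bp wide, chr2:5836009-5837193, beginning 3493 bp after the TSS, and H3K4me3 ran from 3001 to 5432 bp in ProMMP2-3xHA cells and from 2858 to 5442 bp in WT cells. A merged HA peak in the gene body with none at a TSS was found at 2.79% of all genes. Every replicate had peaks in this region: the summits next to its upstream end lay 3602, 3612 and 3652 bp after the SOX11 TSS with a fold enrichment of 4.88, 7.11 and 4.56. Replicates 1 and 3 had another peak with summits at 4572 and 4564 bp and values of 5.12 and 4.70. An lncRNA on the same strand, ENSG00000242540, starts 3836 bp after the SOX11 TSS, within both marks, and the upstream summits lay 234, 224 and 184 bp before that start. Native ChIP gives no way to assign these marks to either transcript.

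SOX5 and SOX6 are long genes with many promoters, and HA lay at some of these only. SOX5 spans 1033 kb with 20 TSS positions, of which 5 had HA and 11 had H3K4me3 in each line. Its merged HA region of 1391 bp, chr12:24715187-24716577, lay at the 5 start sites of the 5′ end of the gene, 613 kb before the canonical TSS. A peak that covered at least 1 of these starts had a fold enrichment of 4.16 in replicate 1 and 6.27 in replicate 2. Another peak, upstream of all 5, had 3.96 in replicate 1 and 6.87 in replicate 2. The nearest peak of replicate 3 was 386 kb away. At the canonical TSS, H3K4me3 was 931 bp wide in ProMMP2-3xHA cells and 1838 bp in WT cells, and no HA list had a peak.

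SOX6, which spans 773 kb with 17 TSS positions, had HA at 4 of these and H3K4me3 at the same 4 in each line. A merged region of 1244 bp, chr11:16628423-16629666, lay 132 kb into the gene, and another of 610 bp, chr11:16759779-16760388, at its 5′ end. The inner region had peaks in every replicate, with highest values of 4.28, 6.27 and 4.70. The 5′ region had a peak in replicate 2 with 5.62 and in replicate 3 with 6.44, and none in replicate 1. Over both regions the highest values were 4.28, 6.27 and 6.44, a mean of 5.66 ± 1.20 (SD, n = 3). Around the inner start sites, replicate 1 had 3 peaks of 148 to 160 bp, 1 of them outside the merged region, and replicate 2 had 1 peak of 1338 bp. The 5′ TSS at 16760190 lies 1 bp from a start of C11orf58 on the opposite strand, a protein coding gene, so that the 5′ region belongs to both promoters. The canonical TSS of SOX6, 383 kb into the gene, had no region in any list.

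**Figure D2:**
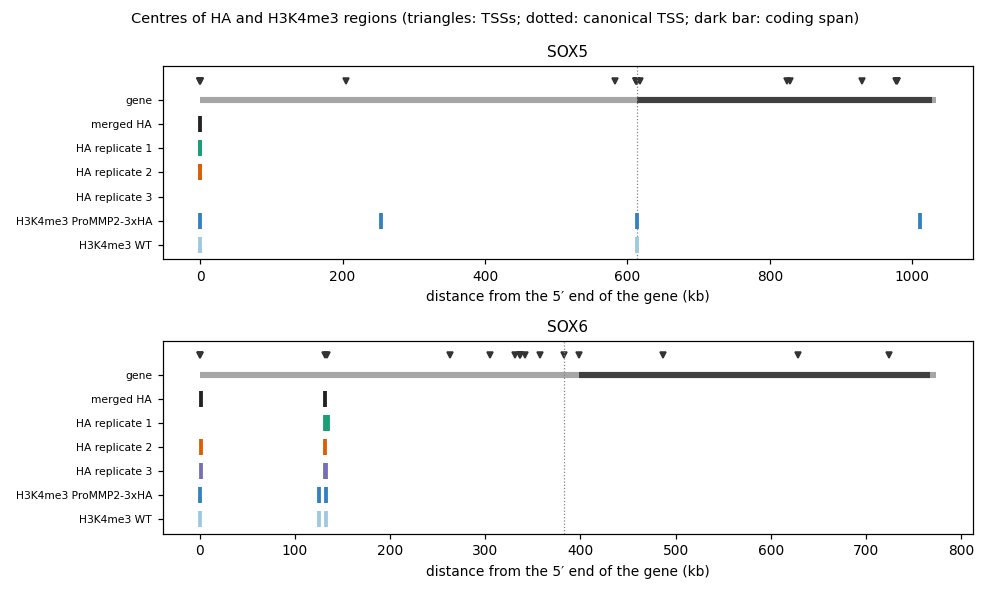
Centres of the HA and H3K4me3 regions of SOX5 and SOX6 as ticks along the gene (distance from its 5′ end in kb; triangles, annotated TSSs; dotted line, canonical TSS; dark bar, coding span), with 1 row per list. HA sits at the 5′ end of both genes and 132 kb into SOX6, and at neither canonical TSS.

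SOX13, the third gene of group D, had a merged HA peak of 202 bp, chr1:204042281-204042482, in the 5′ UTR at its first start sites. The peak was found in replicate 3 only, with a fold enrichment of 6.22, 42 fragments (30.3 to 56.8) and a summit 86 bp after the nearest TSS. In replicates 1 and 2 the nearest peaks were 436 and 394 kb away. Of 9 TSS positions, 4 had HA and the same number had H3K4me3 in each line, over 2432 bp in ProMMP2-3xHA cells and 2478 bp in WT cells.

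SOX2, the pluripotency factor of group B1, had HA upstream of its TSS and no H3K4me3 in ProMMP2-3xHA cells. The merged peak was the narrowest of the SOX genes with 150 bp, about the length of 1 nucleosome, and lay 717 to 568 bp before the TSS. Its whole sequence, the plus strand of GRCh37, is shown because it is the only merged HA region here that touches no SOX promoter window and no H3K4me3 region of the same cells.
SOX2 upstream HA peak, chr3:181428996-181429145, plus strand: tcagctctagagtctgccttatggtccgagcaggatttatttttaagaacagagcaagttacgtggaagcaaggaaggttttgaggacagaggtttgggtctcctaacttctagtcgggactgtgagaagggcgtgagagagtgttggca
With a GC content of 48.0% it was the lowest in GC of the 9 merged HA regions at the SOX genes, whose median was 64.4%, against 65.8% over 7210 merged peaks.

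Of the replicates, only replicate 2 had a peak at SOX2, 740 bp wide, with a fold enrichment of 5.85 and 39 fragments (27.7 to 53.3). Its summit lay 808 bp before the SOX2 TSS, outside the merged region printed above, which begins 717 bp before the TSS. That summit lay 15 bp after a start of SOX2-OT, the lncRNA that runs through SOX2 on the same strand. In replicates 1 and 3 the nearest peak was 722 kb away. In WT cells, H3K4me3 covered 2319 bp from 704 bp before to 1614 bp after the TSS, or 64.3% of the gene, while the nearest region of the ProMMP2-3xHA cells was 3648 bp from the TSS.

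SOX8, the group E relative of SOX9, had a single HA peak, of replicate 2, with a fold enrichment of 4.17, 27 fragments (17.8 to 39.3) and a summit 303 bp before its TSS. The nearest merged peak was 174 kb away. H3K4me3 was 701 bp wide in WT cells, from 896 to 196 bp before the TSS, and the nearest region of ProMMP2-3xHA cells was 10.8 kb away. The peak and the region overlapped starts of LMF1, a protein coding gene, and of the lncRNA CEROX1, both on the opposite strand, 452 to 473 bp and 472 to 477 bp before the SOX8 TSS. SOX18, a regulator of lymph vessel development, had no region of any list at its TSS or in its gene body, and the nearest were H3K4me3 regions 6.92 kb (WT) and 6.99 kb (ProMMP2-3xHA) from the TSS.

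Over the SOX genes with a peak at a TSS, the mean of the highest fold enrichment in the files' own units descended from SOX9 (7.08) through SOX13 (6.22, 1 replicate), SOX4 (6.03 ± 2.31, n = 2), SOX2 (5.85, 1 replicate), SOX6 (5.66), SOX5 (5.52 ± 1.92, n = 2) and SOX12 (5.34) to SOX8 (4.17, 1 replicate). Among the 5 genes with at least 2 replicates, neighbours in this order differed by less than the spread between replicates. These means rest on different replicates, whose lists differ in level, and as the mean log2 difference from the list median the order was SOX9 (0.45), SOX13 (0.44), SOX4 (0.19), SOX6 (0.18), SOX2 (0.15), SOX12 (0.11), SOX5 (0.07) and SOX8 (-0.34). The order also changed between replicates: SOX9 led replicates 1 and 2, whereas SOX6 and SOX13 led replicate 3, where SOX9 was the lowest. The SOX6 value of replicate 3 came from its 5′ region, and those of replicates 1 and 2 from its inner region. At the inner region of SOX6, replicate 3 had 4.70. Replicate 2 gave the highest value at SOX4, SOX5, SOX9 and SOX12 and in the gene body of SOX11.

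**Figure D3:**
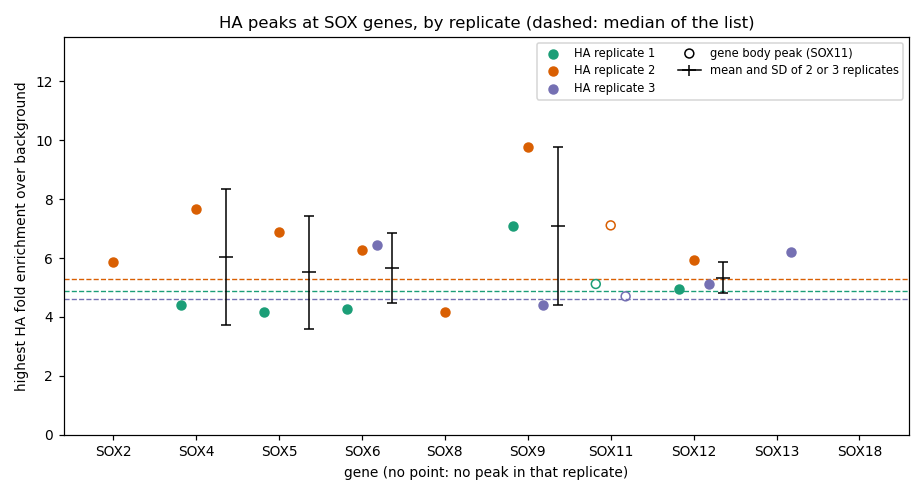
Highest HA fold enrichment over background (y axis) of the peaks within 1 kb of a TSS of each SOX gene, 1 point per replicate, with the mean and SD beside genes that had 2 or 3 replicates; open circles are the gene body peak of SOX11, and dashed lines are the medians of all peaks of each replicate. SOX9 spans 4.40 to 9.76 and SOX12 spans 4.96 to 5.95.

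To set the heights against the rest of each list, the fold enrichment was divided by the median of all peaks of that replicate, which was 4.88, 5.29 and 4.60. On the log2 scale SOX9 lay 0.54 and 0.88 above the median in replicates 1 and 2 and -0.06 from it in replicate 3, a mean of 0.45 ± 0.48 (SD, n = 3, exact permutation of the sign, two-sided p = 0.5, adjusted p = 0.5). SOX6 had differences of -0.19, 0.25 and 0.48, a mean of 0.18 ± 0.34 (exact permutation p = 0.5, adjusted p = 0.5). Its values in replicates 1 and 2 came from the inner region and that in replicate 3 from the 5′ region. The SOX6 mean and p-value thus do not describe repeats of 1 site. SOX12 lay above the median in all 3 replicates by 0.022, 0.17 and 0.15, a mean of 0.11 ± 0.08 (exact permutation p = 0.25, adjusted p = 0.5). The p-values were adjusted over these 3 genes by the Benjamini-Hochberg method, and 0.25 is the smallest p that 3 replicates allow. None of the 3 genes was shown to be higher than the typical peak of its list. The highest peak of a gene is set here against single peaks. Against the median of the highest peaks of all genes, 5.00, 5.71 and 5.04, an alternative chosen after seeing the data, the means were 0.36 for SOX9, 0.09 for SOX6 and 0.02 for SOX12, whose replicate 1 was then below the median. When SOX12 was represented by the summit nearest the TSS, its mean turned to -0.01.

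The depth of the replicates set how firmly the absence of a peak can be read. Among 2000 summits examined in each list, the lowest number of fragments was 29, 23 and 24, and the median was 48, 44 and 40. The peak of SOX8 in replicate 2 (27 fragments), the lowest of SOX6 in replicate 3 (27) and the peaks of SOX5 (31 at both) and SOX6 (29 to 32) in replicate 1 lay near these lower ends, so that a missing call at this depth does not show that HA was absent.

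Within 500 bp of a SOX start site, more HA summits lay after the TSS than before it. Of 39 summits of the 3 replicates in peaks at the SOX start sites, 20 lay within 500 bp of the nearest TSS, and 16 of these were downstream and 4 upstream. The numbers were 5 downstream and 0 upstream in replicate 1, 7 and 3 in replicate 2, and 4 and 1 in replicate 3. Summits further than 500 bp, left out of these counts, lay before the TSS at SOX2, SOX5 and SOX12 and after it at SOX6, SOX9 and SOX12. The sides of summits over all genes were not counted, so these numbers do not set the SOX genes apart. Summits of 1 peak and of replicates at the same site are not independent, and no test was made.

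The number of start sites also bears on the counts of genes. Of the protein coding genes with 1 TSS position, 13.3% had a merged HA peak, against 30.8% of those with 2 to 9 and 48.1% of those with 10 or more. SOX4, SOX9, SOX12 and SOX2, with 1 position each, had a merged peak, whereas SOX11 and SOX18, also with 1, had none at the TSS. SOX13 (9 positions) and SOX8 (2) fell in the middle class, and SOX5 (20) and SOX6 (17) in the highest.

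H3K4me3 was wide at the 6 SOX genes that had it at a TSS in both lines, while the WT region of SOX8 was at the 6.08th percentile of width. The widest region at a TSS in ProMMP2-3xHA and WT cells was 4571 and 4804 bp at SOX4, 4353 and 4545 bp at SOX12, and 3911 and 4331 bp at SOX9. It was 3647 and 4332 bp at SOX6, 2618 and 2715 bp at SOX5, and 2432 and 2478 bp at SOX13. Over these 6 genes the median was 3779 bp in ProMMP2-3xHA cells and 4331.5 bp in WT cells, against 1451 and 1895 bp over the 12737 genes with H3K4me3 in both lines, and SOX4 stood at the 98.8th percentile of the ProMMP2-3xHA list.

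**Figure D4:**
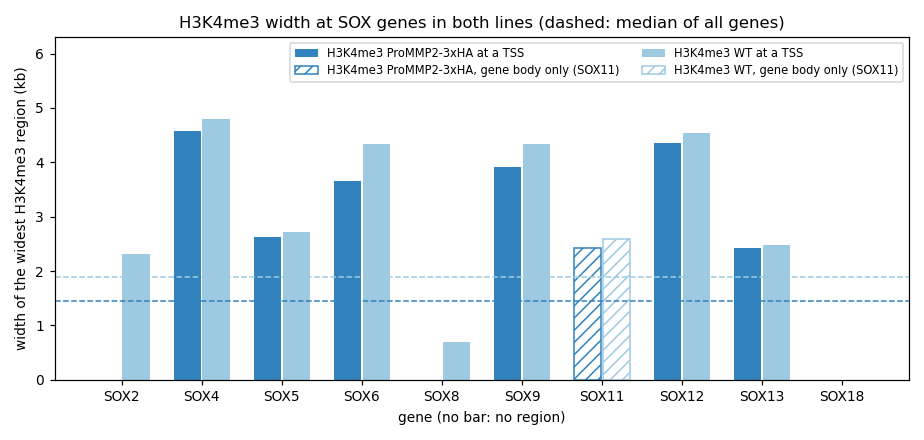
Width of the widest H3K4me3 region (kb) within 1 kb of a TSS of each SOX gene in ProMMP2-3xHA cells (dark bars) and WT cells (light bars), 1 library each; hatched bars are the gene body region of SOX11 and dashed lines the medians over all genes with the mark in both lines. All paired bars are higher in WT, and SOX2 and SOX8 have a WT bar only.

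The region was wider in WT cells at all 6 genes, as it was at 93.0% of all genes with H3K4me3 in both lines, so the direction did not set the SOX genes apart. The ratio of the width in ProMMP2-3xHA cells to that in WT cells was 0.842 at SOX6, 0.903 at SOX9, 0.951 at SOX4, 0.958 at SOX12, 0.964 at SOX5 and 0.981 at SOX13, a median of 0.955. The median over all genes was 0.782 with quartiles of 0.652 and 0.882, and 5 of the 6 SOX genes lay above the upper quartile. The 2868 genes with a WT region of 2478 to 4804 bp, the range of the SOX genes, had a median ratio of 0.814 with quartiles of 0.710 and 0.899. In this class SOX6 stood at the 58.6th percentile, SOX9 at the 76.2nd, SOX4, SOX12 and SOX5 between the 87.2nd and the 89.4th, and SOX13 at the 92.2nd. SOX2 and SOX8, which had no region in ProMMP2-3xHA cells, have no ratio, and the region at the canonical TSS of SOX5, which is not its widest, had a ratio of 0.507, below the lower quartile of all genes. The gene body region of SOX11, with 2432 and 2585 bp, was also slightly wider in WT cells.

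Genes with a merged HA peak had wider H3K4me3 than genes without one, with medians of 1700 and 1189 bp in ProMMP2-3xHA cells, 2126 and 1641 bp in WT cells, and ratios of 0.812 and 0.744 over 6442 and 6295 genes. All 6 SOX genes exceeded both medians. Each line gave 1 library, its list holds no depth, and the part of depth in these widths was not tested.

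**Figure D5:**
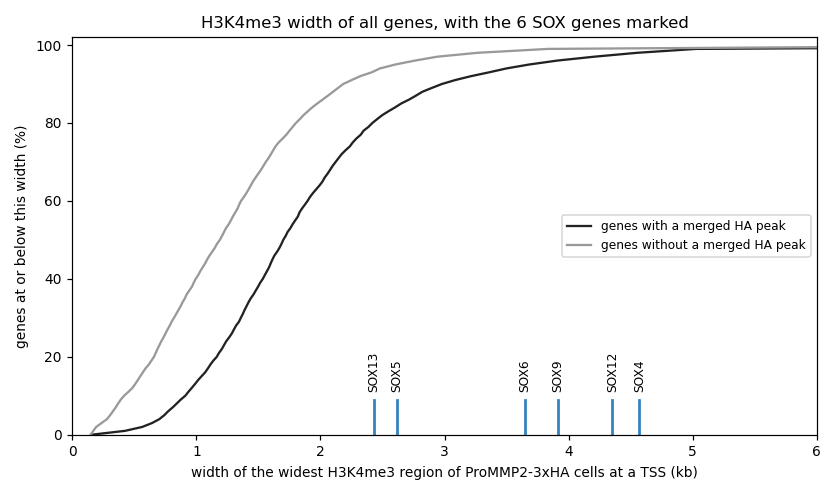
Cumulative share of genes (y axis, %) by the width of their widest H3K4me3 region in ProMMP2-3xHA cells (x axis, kb), for genes with H3K4me3 in both lines that have (black) or lack (grey) a merged HA peak at a TSS; blue ticks mark the 6 SOX genes. The black curve lies to the right, with a median of 1700 against 1189 bp, and the SOX genes lie from 2432 to 4571 bp.

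Of the 9 SOX genes outside the list (SOX1, SOX3, SOX7, SOX10, SOX14, SOX15, SOX17, SOX21 and SOX30), none had an HA peak in any list at a TSS. H3K4me3 in ProMMP2-3xHA cells was found at 2 of them, SOX14 with 391 bp and SOX17 with 1034 bp, and in WT cells at 4, with SOX3 (647 bp) and SOX21 (691 bp) added. SOX3, the X-linked relative of SOX2, and SOX21 therefore had the mark in WT cells only, as SOX2 and SOX8 did. Of all protein coding genes, 63.6% had the mark in ProMMP2-3xHA cells, 67.2% in WT cells and 4.03% in WT cells only.

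TCF and LEF proteins, the HMG-box factors that end the Wnt pathway, were examined beside the SOX genes. No HA peak of any list lay at a TSS of TCF7, LEF1, TCF7L1 or TCF7L2, where 32.4% of all protein coding genes had a merged peak. TCF7L1 had a merged peak in its gene body. H3K4me3 was present in both lines at 3 of these 4 genes, against 63.6% (ProMMP2-3xHA) and 67.2% (WT) of all genes. The regions of LEF1 (2636 and 2964 bp) and TCF7L2 (3311 and 3882 bp) were as wide as those of SOX5 to SOX6, without HA at a TSS. Of all genes with ProMMP2-3xHA H3K4me3 of at least 2432 bp, 74.7% had a merged HA peak.

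Of 11 cartilage matrix genes that SOX9, SOX5 and SOX6 are known to activate, 2 had a merged HA peak at a TSS, against 32.4% of all protein coding genes. These were COL9A2 and COL9A3, which encode chains of type IX collagen. H3K4me3 lay at 6 of the 11 in each line, against 63.6% (ProMMP2-3xHA) and 67.2% (WT) of all genes. COL9A2 had a fold enrichment of 4.16, 6.27 and 5.26 in the 3 replicates and H3K4me3 of 1035 and 1982 bp. COL9A3 had 6.57 and 8.36 in replicates 1 and 2, none in replicate 3, and no H3K4me3 within 1 kb in either line. COL2A1, the type II collagen gene and best known SOX9 target, COL9A1, COL11A2 and COMP had neither HA nor H3K4me3 at a TSS. H3K4me3 without HA at the TSS was found at ACAN, MATN1, MATN3, HAPLN1 and CNMD, with the widest region at HAPLN1 (3549 and 3796 bp). MATN1 had a merged HA peak in its gene body.

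Across all protein coding genes, 3831 had a peak of every replicate and H3K4me3 in both lines, and likeness was measured as the Euclidean distance over these 5 values, each on the log2 scale and in SDs. Nearest to SOX9 were ENC1 (distance 0.692), ZBTB37 (0.784) and CAVIN1 (0.793). KCTD15 (0.347), IQCJ-SCHIP1 (0.41) and ARID4B (0.44) were nearest to SOX6, and SHB with ENSG00000255872, which share their regions (0.377), and ALKBH5 (0.39) to SOX12. SOX9 had no neighbour as close as those of SOX6 and SOX12.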

How the data were processed

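The authors trimmed reads with Trim Galore 0.6.0, aligned them in pairs to hg19 (GRCh37) with Bowtie2 2.3.5.1, filtered them with SAMtools 1.9, removed duplicates with Picard and called peaks with MACS2 3.0.0a6 at a q-value of 0.05, as the submitters' processing notes and the study's methods give it. HA replicates were called separately, against a control that the list names call an HA control; whether this was the HA library of the WT cells, and 1 control for all replicates, is not given in the sources used here. Each deposited line of a replicate holds an interval with a summit, a score, a fold enrichment as a ratio, and −log10 values of p and q. The deposited lists of merged HA and of H3K4me3 hold intervals only, made from narrow calls joined with broad ones, which links close calls and widens regions.

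Lines with the same interval were taken as 1 peak, at the highest of their values. Start sites were the 5′ ends of all transcripts in GENCODE version 44 lifted to GRCh37. A gene had a peak when an interval lay within 1 kb of any of these; the study defined start sites from canonical transcripts only. The SOX genes found in this way were checked with bedtools 2.31.1. The files give no read counts: fragments at a summit were recovered from its fold enrichment and p-value, given HA to control depth ratios of 3.57, 2.81 and 3.00, which resolved 98.8%, 98.8% and 97.8% of 2000 summits. Both steps were tested on simulated data. Intervals are 95% Poisson intervals and cover counting error only. For H3K4me3 the lists hold no depth, and the study's methods give only a minimum number of reads common to all libraries. Python 3.11.15, numpy 2.4.6, scipy 1.17.1 and matplotlib 3.10.9 were used.

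The genes, gene lists and tests were chosen with earlier results of these data known. All 10 SOX genes are named, with the listed other SOX, TCF/LEF, cartilage and marker genes (PECAM1 was not matched), and the 3 genes nearest in likeness to each SOX gene with all 5 values. Shares of all genes stand beside counts as a description. No protein sequences were used here, and some promoter sequences are not reported here.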

Additional observations from a re-analysis of the deposited data

How the results depend on the processing

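Over 8 results and 49 alternatives, 42 values moved by less than the limits set for them. The count of 7 SOX genes with a merged HA peak ranged from 5 (canonical TSS) to 7 over windows and TSS definitions and came to 3 (SOX6, SOX9 and SOX12) when a merged peak had to overlap a peak of every replicate. The count of 3 genes with a peak of every replicate ranged from 3 to 5 when each replicate was left out, with SOX4 and SOX5 added without replicate 3. It came to 2 (SOX9 and SOX12) with only the TSS at the 5′ end of the gene, with only the canonical TSS, and at q-values of 0.01 and 0.001. For peaks of at least 281 bp, the narrowest in replicate 2, an alternative chosen after seeing the data, it came to 1 (SOX9). The genes with H3K4me3 numbered 5 or 6 in ProMMP2-3xHA cells and 7 or 8 in WT cells. The median width ratio of 0.955 came to 0.918 for the bases covered within 5 kb of the start sites, over 8 genes in place of 6, and to 0.930 for this measure over the same 6 genes, chosen after seeing the data. It came to 0.927 for the summed width, for which the median over all genes was 0.777. The mean log2 difference from the list median turned from 0.11 to -0.01 for SOX12 with the summit nearest the TSS, since replicate 2 then gives its lower summit. Against the median of the highest peaks of all genes, also chosen after seeing the data, the means kept their sign at 0.36, 0.09 and 0.02 for SOX9, SOX6 and SOX12. Leaving out each replicate gave 0.03 to 0.36 for SOX6, 0.24 to 0.71 for SOX9 and 0.09 to 0.16 for SOX12. SOX6 had no value at a q-value of 0.01, because replicate 1 then had no peak. No paired analysis was possible because HA has replicates in ProMMP2-3xHA cells only and H3K4me3 has 1 library per line, so that groups share fewer than 2 replicate numbers. With 3 replicates no p below 0.25 can be reached, and the H3K4me3 differences have no replicate check.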
